A study of Homo sapiens with 6 samples.

Results

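The genes described here encode the machinery that shortens the poly(A) tail of messenger RNA, removes its cap and degrades its body: the TNRC6 proteins, the CCR4-NOT complex, the other deadenylases and their TOB partners, the decapping factors, the core factors of nonsense-mediated decay and the RNA exosome. They were chosen by name, as 49 genes whose NCBI gene ID has a row in the authors' deposited table, out of 19589 rows in all, and each of the 49 was found. The rule itself uses no measured value. The libraries, sequenced as RNA, are labelled HepG2, an established line of liver tumour origin. The cells had received either a small interfering RNA that targets the long non-coding RNA HOTAIR (siHOTAIR) or a negative control small interfering RNA (siNC). Both groups were thus transfected, and total RNA depleted of ribosomal RNA was prepared with a stranded kit. The labels give 3 libraries per group, but each deposited mean is the sum of whole reads over 5 libraries, 2 of siNC and 3 of siHOTAIR, so 1 labelled siNC library is unaccounted for. Whether the libraries of a group are separate cultures is not stated, and the p-values may measure technical spread only.

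Cytoplasmic mRNA decay usually starts with removal of the poly(A) tail. TNRC6 proteins, bound to Argonautes on a microRNA target, recruit the PAN2-PAN3 and CCR4-NOT deadenylases, while TOB proteins link CCR4-NOT to poly(A)-binding protein. A deadenylated mRNA is either decapped by DCP2 with its activators and degraded from its 5′ end by XRN1, or degraded from its 3′ end by the exosome. Nonsense-mediated decay is a surveillance route into the same enzymes, in which UPF and SMG proteins act on transcripts whose translation ends too early. In the nucleus the exosome, fed by the helicase MTREX, trims and removes non-coding RNA.

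HOTAIR itself stood at 202 and 150.1 normalized counts in siNC and at 62.4, 78.2 and 59.7 in siHOTAIR, 37.9% of the siNC mean, with a log2 change of -1.37 (SE 0.197, adjusted p = 5.6e-11) per the authors' deposited table. A normalized count is the number of reads of a library divided by its size factor, and the reads of each library were recovered from the deposited means. The replicate numbers of the 5 libraries are unknown, and values are printed in 1 fixed order, siNC first. Over the 11532 features with recovered reads the libraries held 4514668 to 5954205 reads. The cell type label was checked against 17 hepatocyte and HepG2 markers: 9 have a row here, 8 of these have a mean under 20, among them APOA1, SERPINA1 and TF, each with a mean below 1. Of the fibroblast markers 8 have a row, with means from 3.04 to 1591 (COL1A1) and 3 of them under 20, and of the endothelial markers 6, with means from 2.74 to 1602 (ENG) and 4 of them under 20. Of the markers with an adjusted p 3 of 7 fibroblast and 2 of 5 endothelial markers rose, while 1 of 4 leukocyte markers fell. Their part in the changes of the decay genes was not tested, and in bulk RNA fewer cells of a type and less RNA per cell cannot be told apart.

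The decay genes moved in both directions, mostly by small amounts. Of 48 members with an adjusted p in the authors' deposited table, 12 rose (25% of them), 14 fell (29.2%) and 22 did not pass the threshold of 0.05. Over all 14597 tested features 40.4% passed it, 20% that rose and 20.4% that fell, and among the 9991 features within the members' range of means 49.5% passed, 23.8% that rose and 25.7% that fell. The members' share, 54.2%, is close to the latter, so the number of calls says nothing particular about these genes. Their median log2 fold change was -0.04, against 0.01 over all tested features. The called members changed by a median of 0.41 on the log2 scale, against 0.54 for all called features, and the smallest called change was 0.19. A change of at least 1.5-fold was called in 8 of the 48 members, against 17.8% of all 14597 tested features. Of these 8, EDC3 rose, and DCP1B, PAN2, UPF3A, CNOT9, EXOSC6, XRN1 and DCP1A fell. The 0.54 and the 17.8% also cover features outside the members' range of means, and neither was split by direction.

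**Figure D1:**
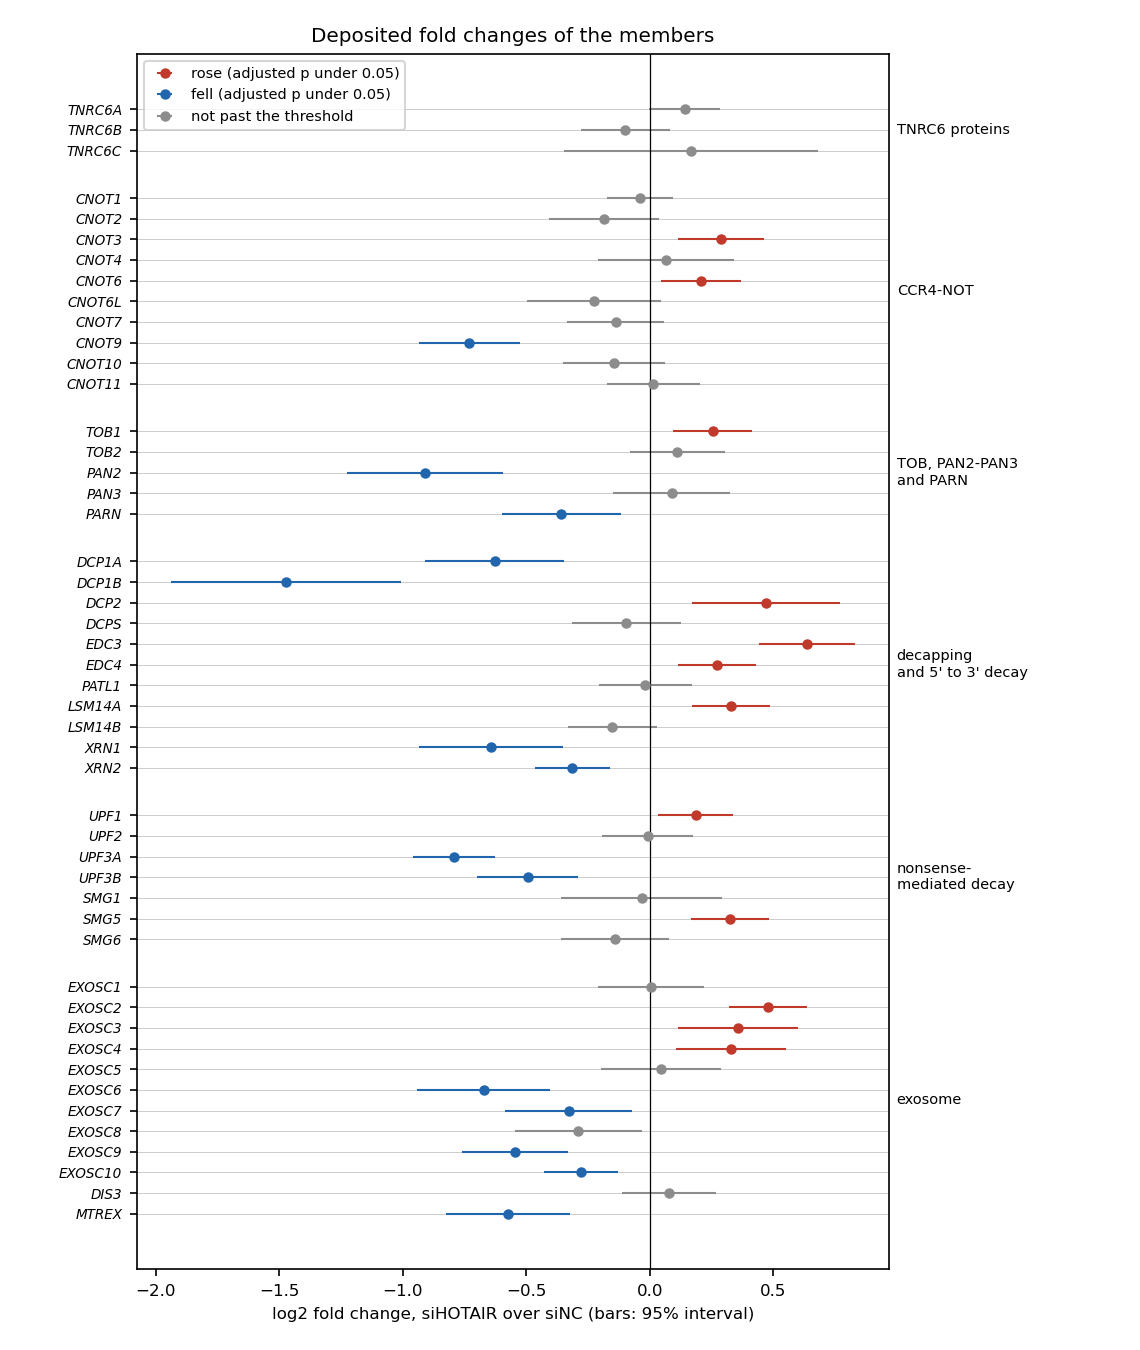
The log2 fold change of siHOTAIR over siNC is drawn on the horizontal axis for the 48 members with an adjusted p, grouped by role on the vertical axis, with bars for the 95% interval from the authors' deposited standard error and colour for the call. DCP1B lies furthest to the left at -1.47 and EDC3 furthest to the right at 0.64, and the intervals of most grey points cross 0.

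In the recovered reads, the 2 siNC libraries and the 3 siHOTAIR libraries did not overlap for 33 of the 48 members with an adjusted p (68.8%), against 67.4% of the 11532 features with recovered reads. The siHOTAIR libraries were higher in 13 of the 48 members and lower in 20 of the 48, against 32.3% and 35.1% of the 11532 features. All 26 called members were among the 33 without overlap. The other 7 of the 33 did not pass the test: TNRC6A was higher in each siHOTAIR library, and CNOT2, CNOT6L, CNOT7, CNOT10, LSM14B and EXOSC8 were lower. In the GENCODE 29 annotation 22 of the 49 members share exonic bases with another gene, 19 of them on the opposite strand, and the strand setting of the counting is unknown. Pseudogenes of the same name are listed for CNOT4, CNOT6L, CNOT7, TOB2, UPF3A, SMG1, EXOSC3 and EXOSC8, which could have lost or gained reads in the counting.

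**Figure D2:**
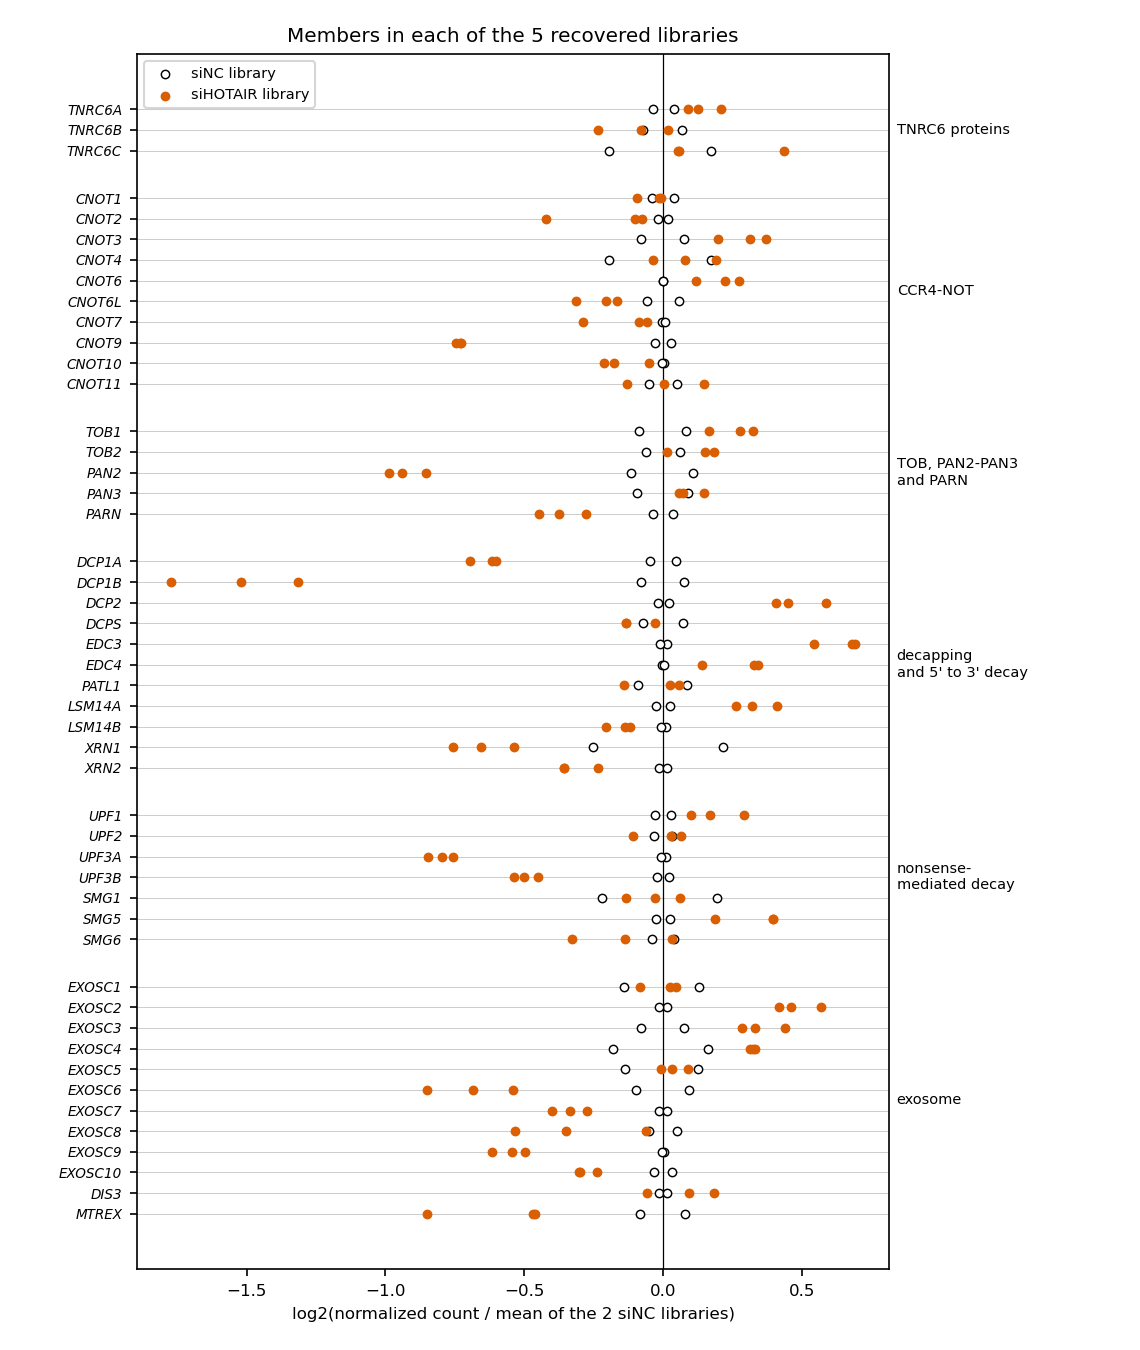
Each point is 1 library of 1 member, placed on the horizontal axis by the log2 ratio of its normalized count to the mean of the 2 siNC libraries, with open circles for siNC and filled ones for siHOTAIR, for the 48 members with an adjusted p. The filled points of DCP1B, at 31.2 to 42.8 normalized counts against 112 and 101, lie furthest to the left, those of CNOT9 nearly coincide, and the open points of XRN1 and SMG1 are spread wide.

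Promoter sequences are shown for the 4 members with the motif CCGGAAG, the core of many ETS factor sites, that also changed by at least 1.5-fold. The motif was searched on both strands (reverse complement CTTCCGG) in RefSeq promoters of GRCh38.p14, from 250 bases before to 50 bases after each gene start. Promoters were found for 44 of the 49 members, 64 promoters in all. The lines give 30 bases, 5′ to 3′ on the gene's strand, with the motif in capitals.
CNOT9: tcgcggacgtcCTTCCGGtcctaaatctta
DCP1B: ggtgactggagCCGGAAGgcctcccgggcc
UPF3A: ccggcgccccgCTTCCGGggccgccctaaa
EDC3: aaggtgtcgcgCCGGAAGtgacctcacggt
The CNOT9 window lies at chr2:218568700-218568729 (+) and the DCP1B window at chr12:2004536-2004565 (-). The UPF3A window lies at chr13:114281394-114281423 (+) and the EDC3 window at chr15:74696039-74696068 (-). The motif begins 128 bases before the start of CNOT9, 97 before that of DCP1B, 196 before that of UPF3A and 33 before that of EDC3, which has a second match, in the reverse orientation, at position 9 after its start.

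The motif was in 9 of the 44 members (20.5%) and in 3321 of 27305 genes of the promoter table (12.2%). It was in members of each outcome: CNOT9, DCP1B, PARN and UPF3A fell, EDC3 and EDC4 rose, and DIS3, TNRC6A and TNRC6B did not pass the test. The motif AAGATGGCG, the core of the YY1 site, was in 4 of 44 members (9.09%) and 2.14% of genes. Of its carriers CNOT3 and EXOSC2 rose and CNOT2 and EXOSC8 did not pass. The TATA motif TATAAA was in 1 of 44 members, EXOSC8, and in 14% of genes. A gene counted if any of its promoters matched, with 64 promoters for the 44 members and 35116 for the 27305 genes. Those genes were not limited to expressed ones. The shares are thus not like for like, and enrichment was not tested. A match describes these letters in this window only and is no evidence of binding.

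None of the 3 TNRC6 genes, which encode the scaffolds that tie Argonautes to the deadenylases, passed the test. TNRC6A stood at 1417 and 1344 normalized counts in siNC and at 1470.1, 1507 and 1596 in siHOTAIR, a log2 fold change of 0.14 in the authors' deposited table. TNRC6B had -0.10 and TNRC6C 0.17 there, and their groups overlapped. Per kilobase of exon, the scale on which levels of different genes can be compared, TNRC6A averaged 174 normalized counts, TNRC6B 45.5 and TNRC6C 5.18. TNRC6C shares 4.45% of its exonic bases with an antisense gene.

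Within CCR4-NOT, the main cytoplasmic deadenylase, 1 of 10 tested subunits fell, 2 rose and 7 did not pass. CNOT9, a scaffold subunit that docks TNRC6 and other adaptors, was at 557 and 536 normalized counts in siNC and at 330.1, 329 and 326 in siHOTAIR. Its mean fell from 546 ± 15 (SD, n = 2) to 328 ± 2.3 (SD, n = 3), 60.1% of the control. The authors' deposited table gives CNOT9 a log2 change of -0.73 (SE 0.104, adjusted p = 3.59e-11). The siHOTAIR libraries lay far below both controls and close to each other.

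CNOT3, a scaffold subunit of the NOT module, rose by a smaller amount, from 812 and 729 normalized counts in siNC to 883, 957 and 997 in siHOTAIR. Its log2 fold change was 0.29 (SE 0.089, adjusted p = 0.00433) per the authors' deposited table. CNOT6, a catalytic subunit of the CCR4 type, stood at 886 and 885 in siNC and at 1071, 1034 and 961 in siHOTAIR. The authors' deposited table gives CNOT6 a log2 change of 0.21 (SE 0.0823, adjusted p = 0.0315). With limma on the recovered reads CNOT6 lost its call in 4 of the 5 fits that leave out 1 library, in every one but that without siHOTAIR library c, and CNOT3 lost it without siNC library b. Both kept their direction in all 5 fits.

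The remaining subunits did not pass. CNOT1, the large scaffold, was the most abundant member by mean, with 2380 normalized counts and a log2 fold change of -0.04 in the authors' deposited table. The others there were CNOT2 at -0.19, CNOT4, a ubiquitin ligase, at 0.07, CNOT6L at -0.23, CNOT7 at -0.14, CNOT10 at -0.15 and CNOT11 at 0.01. CNOT8, the close paralog of the catalytic subunit CNOT7, has no adjusted p: its siNC libraries held 1 read each, and its siHOTAIR libraries 0, 1 and 0.

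Of the 5 TOB, PAN2-PAN3 and PARN genes, 1 rose and 2 fell. PAN2, the catalytic subunit of the PAN2-PAN3 deadenylase, was at 226 and 194 normalized counts in siNC and at 116, 106 and 109 in siHOTAIR, 52.6% of the control mean. The log2 fold change of PAN2 was -0.91 (SE 0.161, adjusted p = 1.49e-07) per the authors' deposited table. Its partner PAN3, which binds TNRC6 and the poly(A) tail, had 0.09 in the authors' deposited table, with overlapping groups. PAN2 shares 2.05% of its exonic bases with CNPY2 on the same strand.

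PARN, a deadenylase that also trims telomerase RNA, was at 317 and 334 normalized counts in siNC and at 251, 269 and 239 in siHOTAIR. Its log2 fold change was -0.36 (SE 0.122, adjusted p = 0.0109) per the authors' deposited table. TOB1, an antiproliferative protein that recruits CCR4-NOT, rose from 1197 and 1066 in siNC to 1416, 1370.3 and 1268 in siHOTAIR. The authors' deposited table gives TOB1 a log2 change of 0.25 (SE 0.0816, adjusted p = 0.00641), and in the limma fits its call was lost without siNC library b and without siHOTAIR library b. TOB2 had 0.11 in the authors' deposited table and did not pass. TOB1 shares 11.2% of its exonic bases with TOB1-AS1 on the opposite strand.

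Among the 11 decapping and 5′ to 3′ decay genes 4 rose and 4 fell, and both the largest fall and the largest rise of all members were here. DCP1B, an activator of the decapping enzyme, was at 112 and 101 normalized counts in siNC and at 31.2, 42.8 and 37.2 in siHOTAIR. Its mean fell from 107 ± 8.03 (SD, n = 2) to 37.1 ± 5.82 (SD, n = 3), 34.8% of the control. The log2 fold change of DCP1B was -1.47 (SE 0.238, adjusted p = 7.28e-09) per the authors' deposited table. Its paralog DCP1A fell too, from 245 and 229.7 to 155, 147 and 157, with a log2 change of -0.63 (SE 0.144, adjusted p = 7.19e-05) per the authors' deposited table.

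The catalytic subunit DCP2 and the decapping enhancers EDC3 and EDC4 went the other way. DCP2, the enzyme that cuts the cap, rose from 144 and 140.1 normalized counts to 188, 213 and 194, with a log2 change of 0.47 (SE 0.152, adjusted p = 0.00687) per the authors' deposited table. EDC3, a scaffold that binds DCP2, was at 414 and 407 in siNC and at 662, 656 and 598 in siHOTAIR, 156% of the control mean. The authors' deposited table gives EDC3 a log2 change of 0.64 (SE 0.0991, adjusted p = 1.96e-09). EDC4, which joins DCP1 to DCP2, rose from 1185 and 1192 to 1311, 1506 and 1490.4, by 0.27 in log2 units (SE 0.0804, adjusted p = 0.00301) per the authors' deposited table. EDC4 shares 26.1% of its exonic bases with another gene on the same strand and lost its call in the limma fit without siHOTAIR library b.

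LSM14A, an RNA-binding protein of processing bodies, rose from 905 and 875 normalized counts to 1111, 1181 and 1067, with a log2 change of 0.33 (SE 0.081, adjusted p = 0.000254) per the authors' deposited table. LSM14B had -0.15, PATL1, a scaffold between decapping factors and the LSM ring, -0.02 and DCPS, which hydrolyses the cap left after 3′ to 5′ decay, -0.10 in the authors' deposited table, and these did not pass.

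Both 5′ to 3′ exonucleases fell. The cytoplasmic XRN1 was at 336 and 243 normalized counts in siNC and at 199, 171 and 184 in siHOTAIR, so that its controls differed from each other by more than any of its siHOTAIR libraries did. Its log2 fold change was -0.64 (SE 0.149, adjusted p = 9.12e-05) per the authors' deposited table. With limma on the recovered reads the log2 difference of XRN1 was -0.63, and it was -0.40 without siNC library a and -0.86 without siNC library b, so its size rests on which control is used. The nuclear XRN2, which also acts in transcription termination, fell from 1283 and 1311 to 1012, 1103 and 1013, with a log2 change of -0.31 (SE 0.0773, adjusted p = 0.000247) per the authors' deposited table.

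Of 7 genes of nonsense-mediated decay 2 rose and 2 fell. UPF3A and UPF3B, paralogs that bind the exon junction complex, were those that fell. UPF3A was at 1053 and 1041 normalized counts in siNC and at 619, 603 and 582 in siHOTAIR, a fall of its mean from 1047 ± 8.74 (SD, n = 2) to 602 ± 18.5 (SD, n = 3). It had the smallest adjusted p of all members, with a log2 change of -0.79 (SE 0.0845, adjusted p = 2.08e-19) per the authors' deposited table. UPF3B stood at 517 and 502 in siNC and at 351, 373 and 360.5 in siHOTAIR, with -0.49 (SE 0.104, adjusted p = 1.28e-05) per the authors' deposited table. RefSeq names 3 pseudogenes of UPF3A, with which it could share reads.

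SMG5, an adaptor that brings decay enzymes to phosphorylated UPF1, rose from 1286 and 1241 normalized counts to 1436, 1663 and 1662. Its log2 fold change was 0.32 (SE 0.0813, adjusted p = 0.000325) per the authors' deposited table. UPF1, the central helicase of the pathway, was at 1368 and 1313 in siNC and at 1437, 1507 and 1640.2 in siHOTAIR, with 0.19 (SE 0.0775, adjusted p = 0.042) per the authors' deposited table. UPF1 was the called member with the smallest change. It did not pass with limma on the recovered reads, in 4 of the 5 limma fits that leave out 1 library (all but that without siHOTAIR library a), or once the fold changes were centred on the median of all tested features.

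UPF2, which bridges UPF1 and UPF3, had -0.01, SMG6, the endonuclease of the pathway, -0.14 and SMG1, the kinase that phosphorylates UPF1, -0.03 in the authors' deposited table, and these did not pass. SMG1 varied widely between libraries for its level: its siNC libraries stood at 1043 and 783 normalized counts. Its fitted dispersion was 0.0155, higher than in 97.7% of 1153 features of like mean, whose median was 0.00326. RefSeq names 7 SMG1 pseudogenes, so its count is uncertain. SMG6 shares 27.7% of its exonic bases with HIC1 on the opposite strand.

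The 12 exosome genes moved in both directions, with 3 that rose, 5 that fell and 4 that did not pass. In the cap of RNA-binding subunits, EXOSC2 rose from 902 and 883 normalized counts in siNC to 1192, 1226 and 1324 in siHOTAIR, 140% of the control mean. The authors' deposited table gives EXOSC2 a log2 change of 0.48 (SE 0.0802, adjusted p = 2.68e-08). EXOSC3 rose from 235 and 262 to 337, 313 and 303, with 0.36 (SE 0.124, adjusted p = 0.013) per the authors' deposited table. The other cap subunit, EXOSC1, had 0.00 there and did not pass.

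In the ring of 6 subunits related to RNase PH, 1 rose, 3 fell and 2 did not pass. EXOSC6 was at 285 and 325 normalized counts in siNC and at 189.7, 169 and 209.5 in siHOTAIR, with a log2 change of -0.67 (SE 0.137, adjusted p = 6.36e-06) per the authors' deposited table. EXOSC9 fell from 457 and 455 to 313, 323 and 297, with -0.55 (SE 0.109, adjusted p = 4.22e-06) per the authors' deposited table. EXOSC7 fell from 264 and 269 to 220.0, 211 and 202, with -0.33 (SE 0.131, adjusted p = 0.0319) per the authors' deposited table. These 3 ring subunits were lower in each siHOTAIR library than in either control.

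EXOSC4 rose, from 332 and 420.2 normalized counts to 467, 470.0 and 473, with a log2 change of 0.33 (SE 0.113, adjusted p = 0.0118) per the authors' deposited table. Its siHOTAIR libraries nearly coincide and its controls do not, and 30.9% of its exonic bases are shared with another gene on the opposite strand. The limma calls of EXOSC4 and EXOSC3 were lost without siNC library a, and that of EXOSC7 without siNC library b. The limma log2 difference of EXOSC4 was 0.33 with all 5 libraries, 0.16 without siNC library a and 0.50 without siNC library b. EXOSC5 had 0.04 and EXOSC8 -0.29 in the authors' deposited table, where EXOSC8 has an adjusted p of 0.0657. EXOSC8 passed with limma on the recovered reads of all 5 libraries.

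Of the nucleases, EXOSC10, the distributive nuclear one, fell from 1270.1 and 1212 normalized counts to 1052, 1008 and 1006, with a log2 change of -0.28 (SE 0.0763, adjusted p = 0.00108) per the authors' deposited table. DIS3, the processive one, had 0.08 in the authors' deposited table and did not pass. MTREX, the helicase that feeds RNA to the nuclear exosome, was at 416 and 372 in siNC and at 285, 286 and 219 in siHOTAIR, 66.8% of the control mean. The log2 fold change of MTREX was -0.57 (SE 0.129, adjusted p = 4.89e-05) per the authors' deposited table.

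Paralogs were set side by side. The difference between paralogs was not tested. Each change below is a log2 fold change of the authors' deposited table with its 95% interval. Per kilobase of exon, XRN2 averaged 333 normalized counts and XRN1 21, and their intervals were -0.47 to -0.16 and -0.94 to -0.35. UPF3A averaged 308 per kilobase and UPF3B 177, with intervals of -0.96 to -0.63 and -0.70 to -0.29. DCP1A averaged 31.1 and DCP1B 15.2, with intervals of -0.91 to -0.35 and -1.94 to -1.01. In these 3 pairs both members fell.

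In the other pairs at most 1 member passed the test. TOB1 averaged 503 normalized counts per kilobase with an interval of 0.09 to 0.41 on the log2 scale of the authors' deposited table, and TOB2 averaged 122 with -0.08 to 0.31. LSM14A averaged 278 with 0.17 to 0.49, and LSM14B 192 with -0.33 to 0.03. CNOT6 averaged 151 with 0.05 to 0.37, and CNOT6L, the other CCR4-type nuclease, 23.3 with -0.50 to 0.04. CNOT7 averaged 69.9 with -0.33 to 0.06, while CNOT8 averaged 0.204, from 3 reads in 5 libraries. Whether so few reads reflect the level of CNOT8 or the way reads were counted was not tested.

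**Figure D3:**
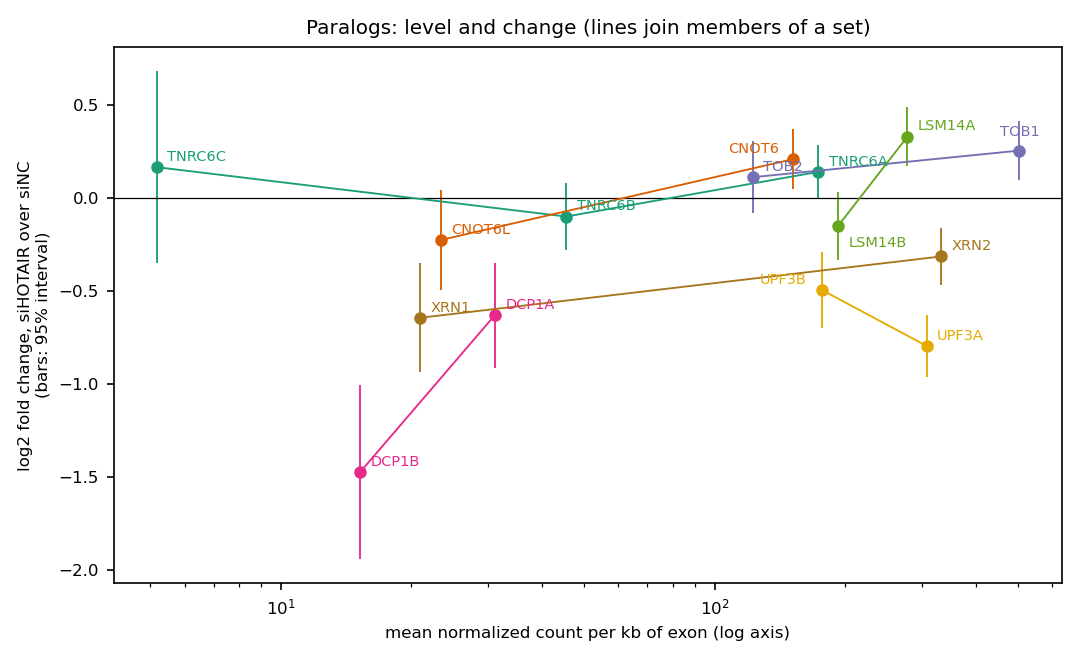
The mean normalized count per kilobase of exon (horizontal logarithmic axis) is drawn against the log2 fold change of siHOTAIR over siNC (vertical axis, bars for the 95% interval), with a line between the members of each set; CNOT7 and CNOT8 are left out, as CNOT8 has 3 reads. Both members of XRN1/XRN2, UPF3A/UPF3B and DCP1A/DCP1B lie below 0.

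Other genes of these pathways were described from fixed lists, with up to 3 genes named in each direction by smallest adjusted p. Among the 9991 features within the members' range of means 23.8% rose and 25.7% fell. Some list genes lie outside that range. With lists this small nothing particular is read from their counts or medians. Of 8 Argonaute and microRNA effector genes 1 rose and 1 fell. These were AJUBA, a LIM protein (0.42, adjusted p = 1.76e-05), and DDX6, a helicase that represses translation and activates decapping (-0.31, adjusted p = 9.02e-05), in the authors' deposited table. AGO2, the Argonaute that cleaves its targets, had -0.20 there and did not pass.

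Of 12 genes of the cytoplasmic LSM ring and decapping accessories 4 rose and 2 fell, with a median of 0.08. LSM2 (0.40, adjusted p = 0.00153), LSM7 (0.48, adjusted p = 0.00336) and PNRC2 (0.28, adjusted p = 0.00627), which links UPF1 to DCP1, rose in the authors' deposited table. The ring subunit LSM4 (-0.39, adjusted p = 4.21e-05) and the decapping enzyme NUDT16 (-0.40, adjusted p = 0.0139) fell in the authors' deposited table. The ring subunits therefore moved in both directions.

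Of 19 genes of poly(A)-binding proteins and tail metabolism 2 rose and 5 fell. The poly(A) polymerase TENT4B (0.61, adjusted p = 0.000184) and the poly(A)-binding protein PABPC1 (0.22, adjusted p = 0.042) rose in the authors' deposited table. PAIP1, a partner of PABPC1 (-0.40, adjusted p = 2.86e-05), and the terminal uridylyltransferases TUT4 (-0.39, adjusted p = 0.000743) and TUT7 (-0.41, adjusted p = 0.029) fell in the authors' deposited table.

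Of 14 further genes of nonsense-mediated decay and the exon junction complex 1 rose and 5 fell, with a median of -0.17. DHX34, a helicase that aids UPF1 (0.86, adjusted p = 3.5e-20), rose in the authors' deposited table. The AAA ATPase RUVBL1 (-1.0, adjusted p = 9.92e-20), the release factor GSPT1 (-0.36, adjusted p = 1.15e-06) and the junction core protein MAGOHB (-1.10, adjusted p = 3.59e-06) fell in the authors' deposited table.

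Of 17 exosome cofactors 2 rose and 6 fell, with a median of -0.08. SKIC3 (-1.10, adjusted p = 5.92e-23) and SKIC8 (-0.73, adjusted p = 1.88e-08), subunits of the cytoplasmic Ski complex, and ZFC3H1 of the nuclear PAXT connection (-0.66, adjusted p = 2.15e-10) fell in the authors' deposited table. The Ski helicase SKIC2 had -0.06 there and did not pass. NRDE2, a partner of MTREX (0.44, adjusted p = 0.00206), and RBM7 of the nuclear NEXT complex (0.43, adjusted p = 0.00717) rose in the authors' deposited table.

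Of 20 adaptors that recruit deadenylases 7 rose and 4 fell. The N6-methyladenosine reader YTHDF1 (0.69, adjusted p = 1.61e-15), the Smaug homolog SAMD4B (0.50, adjusted p = 2.68e-09) and the AU-rich element protein ZFP36L2 (0.55, adjusted p = 1.73e-06) led those that rose in the authors' deposited table. Its relative ZFP36 (-1.02, adjusted p = 3.58e-11), the other Smaug homolog SAMD4A (-0.46, adjusted p = 0.00389) and the Roquin family protein RC3H2 (-0.43, adjusted p = 0.00512) fell in the authors' deposited table. Called members of both the ZFP36 and the SAMD4 families thus lay on opposite sides.

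**Figure D4:**
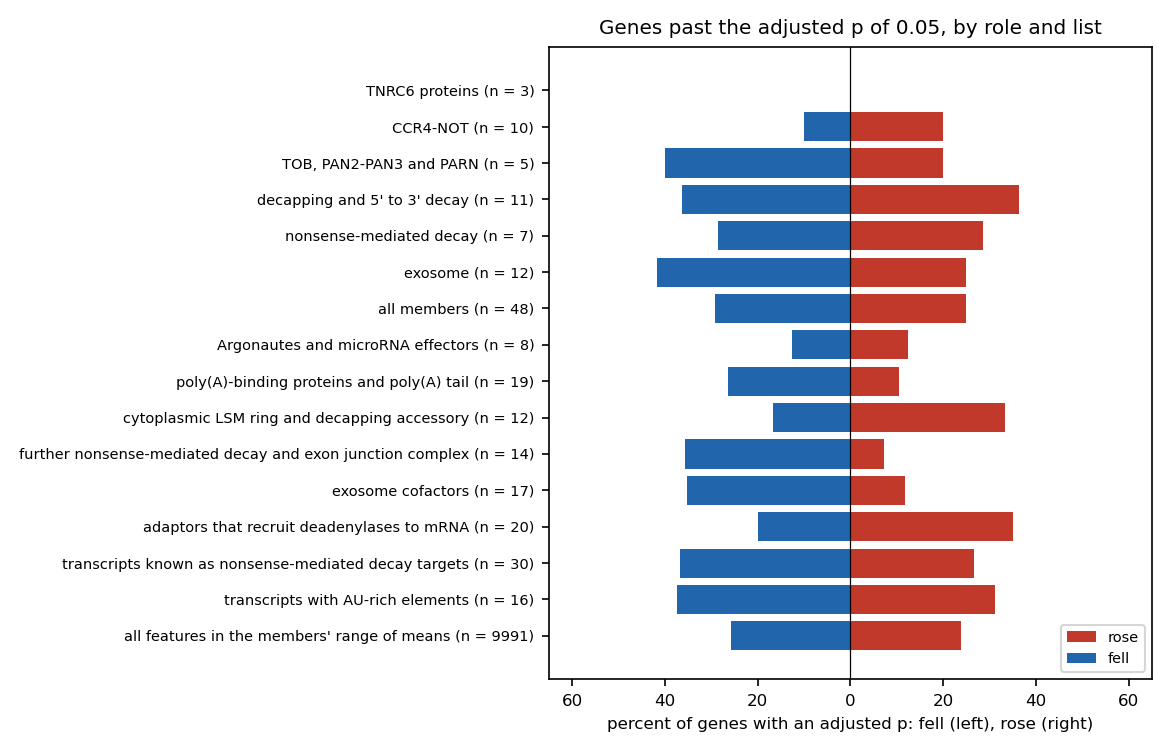
Bars to the right give the percentage of the genes with an adjusted p that rose, and bars to the left the percentage that fell, for each role, each further list and all features in the members' range of means, with the number of genes beside each name. No TNRC6 gene is called, the members as a whole show 25% and 29.2%, and the bottom bars, for the 9991 features, show 23.8% and 25.7%.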

How the data were processed

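Total RNA of libraries labelled HepG2 was sequenced after ribosomal RNA depletion. The authors' tools, per the submitters' processing notes, were HTSeq 0.6.1, DESeq and DESeq2, on hg19. Not given in the sources used here are aligner, annotation and strand setting. Reads of overlapping opposite-strand genes may therefore not be told apart. The files hold the authors' comparison and 0 columns of single libraries, so the planned edgeR test gave way to the planned fallback, the authors' test with an adjusted p threshold of 0.05.

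The authors' mean column holds a signal, the deposited average over libraries of size-factor-normalized counts. The log2 fold changes and standard errors, the score in the statistic column and the p-values are the authors', as deposited. A second table gives the same values with call words.

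Reads per library were recovered. Each mean is a sum of whole reads times 5 steps, and all 3940 features with a mean up to 2 had 1 solution. A step belongs to siHOTAIR where the fold change lies above 0 for features whose only read it holds. For features with means from 20 to 2500, and for each member, a solution also had to give the deposited log2 fold change within 1e-06 in a negative binomial fit with a prior that shrinks towards 0, and 11532 of 11556 features (99.8%) had 1 and none had more. The siNC size factors were 1.19 and 0.893, and those of siHOTAIR 1.15, 0.934 and 0.888. An alternative chosen after seeing the data ran limma 3.58.1 (R 4.3.3), with a mean trend, on log2 of recovered normalized counts plus 1. Both procedures were tested on simulated data. All 120 simulated features had their reads recovered rightly, but their means were drawn below those of the most abundant members. The limma simulation used 1 dispersion and changed far fewer features than were called here, so it does not cover a comparison with this many changes.

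Exonic lengths and overlaps came from GENCODE 29. The 95% intervals are the log2 fold change with its deposited standard error. Named with full statistics were members with an adjusted p under 0.05, at most 6 per role and direction; other members have their fold change, and paralog sets were named whatever their values. From the further lists up to 3 genes per direction were named, of which a few are not reported here; AGO2 and SKIC2 were added after their values were seen. The members, lists and motifs were chosen with earlier results of these data known.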

Additional observations from a re-analysis of the deposited data

How the results depend on the processing

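The 26 called members, 12 that rose and 14 that fell, became 15 (4 that rose and 11 that fell) at an adjusted p under 0.001. With a change of at least 1.5-fold required, 8 were called, 1 that rose and 7 that fell. Over all tested features 17.8% passed with that change required. The share of all features at 0.001 and the 1.5-fold shares by direction were not computed. No direction is therefore read from these 2 settings. The count of called members stayed between 20 and 26 at an adjusted p under 0.01, with adjustment over every feature that has a p-value, with only features of a mean of at least 20, after centring, and in the second deposited table. With limma on the recovered reads, at a pseudocount of 1 or 0.5, 26 members passed, 11 that rose and 15 that fell, against 53.6% of the 11532 features. Leaving out 1 library at a time gave 21 to 27 calls, 8 to 11 that rose and 13 to 16 that fell, while 43.2% to 51.8% of all features passed in the same fits. In these 5 fits all 26 called members kept their direction and 18 kept their call in every fit; EXOSC8, CNOT2 and SMG6 passed in some fits that leave out a library. Where 1 siNC library remained, limma assumes that it varies like the siHOTAIR libraries. No paired analysis was possible because the recovered libraries carry no replicate number. The edgeR and DESeq2 alternatives, with and without a filter on low counts, were not run, since the files hold no count columns. At means near 100 or below (DCP1B, TNRC6C) counting error widens the intervals, and the 3 reads of CNOT8 allow no comparison.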

Other observations

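Transcripts known to be degraded by these routes were counted too. Of 30 transcripts known as targets of nonsense-mediated decay, 8 rose and 11 fell, with a median log2 fold change of -0.04 in the authors' deposited table. Among the 9991 features within the range of means of the decay genes 49.5% passed, 23.8% that rose and 25.7% that fell. GAS5 (1.08, adjusted p = 2.77e-30), SNHG1 (0.85, adjusted p = 3.39e-22) and SNHG5 (0.74, adjusted p = 2.6e-08), host transcripts of small nucleolar RNAs, rose in the authors' deposited table. CDKN1A, a cell cycle inhibitor (-0.92, adjusted p = 1.37e-35), SRSF6, a splicing factor whose own mRNA carries a poison exon (-0.70, adjusted p = 2.67e-15), and GADD45B (-0.96, adjusted p = 7.12e-10) fell in the authors' deposited table. ATF4, another known target, had 0.12 there and did not pass. The count pools unlike genes: the non-coding transcripts of the list rose or did not pass, while its SRSF and TRA2 genes all fell. This split was made after the values were seen. Counts per gene do not separate isoforms, so for genes such as SRSF6 the transcript with the poison exon was not measured apart.

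Of 16 transcripts with AU-rich elements, which bind ZFP36 proteins and other regulators of decay, 5 rose and 6 fell, with a median of -0.09, against the same shares of all features; with 16 transcripts nothing particular is read from the count. MYC (0.57, adjusted p = 6.67e-16) and DUSP1 (0.37, adjusted p = 2.94e-06) rose in the authors' deposited table. FOS (-1.52, adjusted p = 4.35e-104), MCL1 (-0.55, adjusted p = 6.44e-13) and CCND1 (-0.41, adjusted p = 5.73e-09) fell in the authors' deposited table. ATF4 was singled out after its value was seen.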
